A study of Mus musculus with 14 samples.

Results

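The genes described here are 34 components of the autophagy machinery and its transcriptional regulators in mouse pancreatic islet cells, chosen by gene name from the 52459 genes of the count table. They comprise 4 genes of the ULK kinase complex, 4 of the class III phosphatidylinositol 3-kinase complex, 5 of membrane supply and phosphoinositide binding, 6 of the ubiquitin-like conjugation systems, 4 ATG4 proteases, 5 ATG8 family genes, 3 cargo receptors and 3 members of the TFEB family. The rule names the genes and uses no measured value, although it was drawn up with earlier results of these data known. All 34 were among the 16350 genes that passed the filter on low counts. The cells came from dispersed islets of male C57BL/6J mice aged 7 months, and both groups share that strain, sex and age with no treatment named. Flow cytometry divided them by beta-galactosidase activity at acidic pH into 7 beta-galactosidase-negative and 7 beta-galactosidase-positive libraries of polyadenylated RNA. Acidic beta-galactosidase activity is a widely used marker of senescent cells and resides in the lysosome, so the gate was set on a lysosomal enzyme. Nothing in the labels ties a numbered library to a mouse or a pool of mice. The p-values therefore compare library with library, and some of that variation can be technical. A negative and a positive library with the same number deviated together from their group means, and a fit with that number as a block was therefore read beside the fit with group alone.

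The libraries held 11060144 to 24577025 counts each. Beta cell markers had summed levels of 104535 to 155742 CPM (counts scaled to library size) in negative and 100352 to 130725 in positive libraries, so beta cell transcripts were abundant in both gates. The sum was lower in the positive library in 6 of 7 same-number pairs, and all 14 beta cell markers had a negative log2 fold change (median -0.30), with 2 called lower and 7 with the block. Markers of other cell types also differed between the gates. The 15 macrophage markers summed to 18.1 to 26.2 CPM in negative libraries and to 91.7 to 824 CPM in positive libraries, and all 14 that could be tested were called higher in positive cells. The 15 endothelial markers summed to 4.72 to 75.1 CPM and 422 to 1418 CPM, and all 15 were called higher. No macrophage or endothelial marker was at 0 in every library of either group. Positive libraries 6 and 7 had the highest macrophage sums, 824 and 578 CPM. The summed delta cell markers were also higher in all 7 same-number pairs, and the summed acinar markers were lower in all 7. The log2 fold changes of pericyte and fibroblast markers had mixed signs. Of 9 tested, 4 were called higher, such as Rgs5 (4.02), and 4 had a negative log2 fold change, such as Col1a1 (-2.13, not called). The sum of these markers was 1453 CPM in negative library 3, against 15.6 to 70.8 CPM in the other negative libraries. The median Col1a1 level was 9.22 CPM in negative and 8.93 CPM in positive libraries. Libraries 1 to 5 alone still differed, with macrophage sums of 18.1 to 20.8 CPM in negative and 91.7 to 132 CPM in positive cells. The part of these other cells in the results below was not tested, and values without libraries 6 and 7 do not test it.

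Autophagy encloses cytoplasm in a double membrane, the autophagosome, and delivers it to the lysosome. The ULK kinase complex starts the process, the phosphatidylinositol 3-kinase complex marks the membrane with a lipid, PI3P, and ubiquitin-like conjugation then attaches ATG8 proteins to the membrane, where cargo receptors dock. TFEB, TFE3 and MITF are related transcription factors that bind E-box motifs in promoters of lysosomal and autophagy genes, and they are held in the cytoplasm when the nutrient-sensing kinase complex mTORC1 phosphorylates them. In beta cells, autophagy removes damaged organelles and secretory granules, and loss of Atg7 in these cells is known to impair insulin secretion. A transcript level does not measure the turnover of autophagosomes or the location of TFEB.

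The transcripts of the autophagy machinery were at nearly the same level in both gates. By the quasi-likelihood test of edgeR, with Benjamini-Hochberg adjusted p-values over all 16350 genes, 1 of the 34 genes, the cargo receptor gene Optn, was called higher in positive cells at an adjusted p below 0.05. None was called lower, with 1 gene lower at an unadjusted p below 0.05, and DESeq2 likewise called 1 higher and 0 lower. Over all genes tested, 6.40% were called higher and 1.63% lower. The median log2 fold change (positive minus negative) was 0.02 over the 34 genes and 0.00 over all genes, and the 34 values ran from -0.18 to 0.35. Their median absolute log2 fold change was 0.06, against 0.12 over all genes tested. That comparison is not matched for level. The 34 genes averaged 3.10 to 11.37 log2 CPM, while genes as low as Atg9b, at -0.02, were among those tested. In bulk libraries such as these, fewer cells of a type and less RNA per cell cannot be told apart.

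The precision was sufficient to bound most of these differences. The standard errors ran from 0.05 to 0.23 on the log2 scale, with a median of 0.08. For 26 of the 34 genes, the 95% confidence interval lay within a 1.25-fold change in either direction, and for 33 it lay within 1.5-fold. Tfeb was the exception, with an interval of -0.34 to 0.64. Over all genes tested, 41.1% of intervals lay within 1.25-fold and 70.6% within 1.5-fold, again without matching for level. With replicate number as a block, 2 of the 34 genes were called higher, Optn and Sqstm1, and 1 was called lower, Ulk1. That fit called 11.8% of all genes higher and 7.77% lower, and the shares of the 34 genes were 5.88% and 2.94%.

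**Figure D1:**
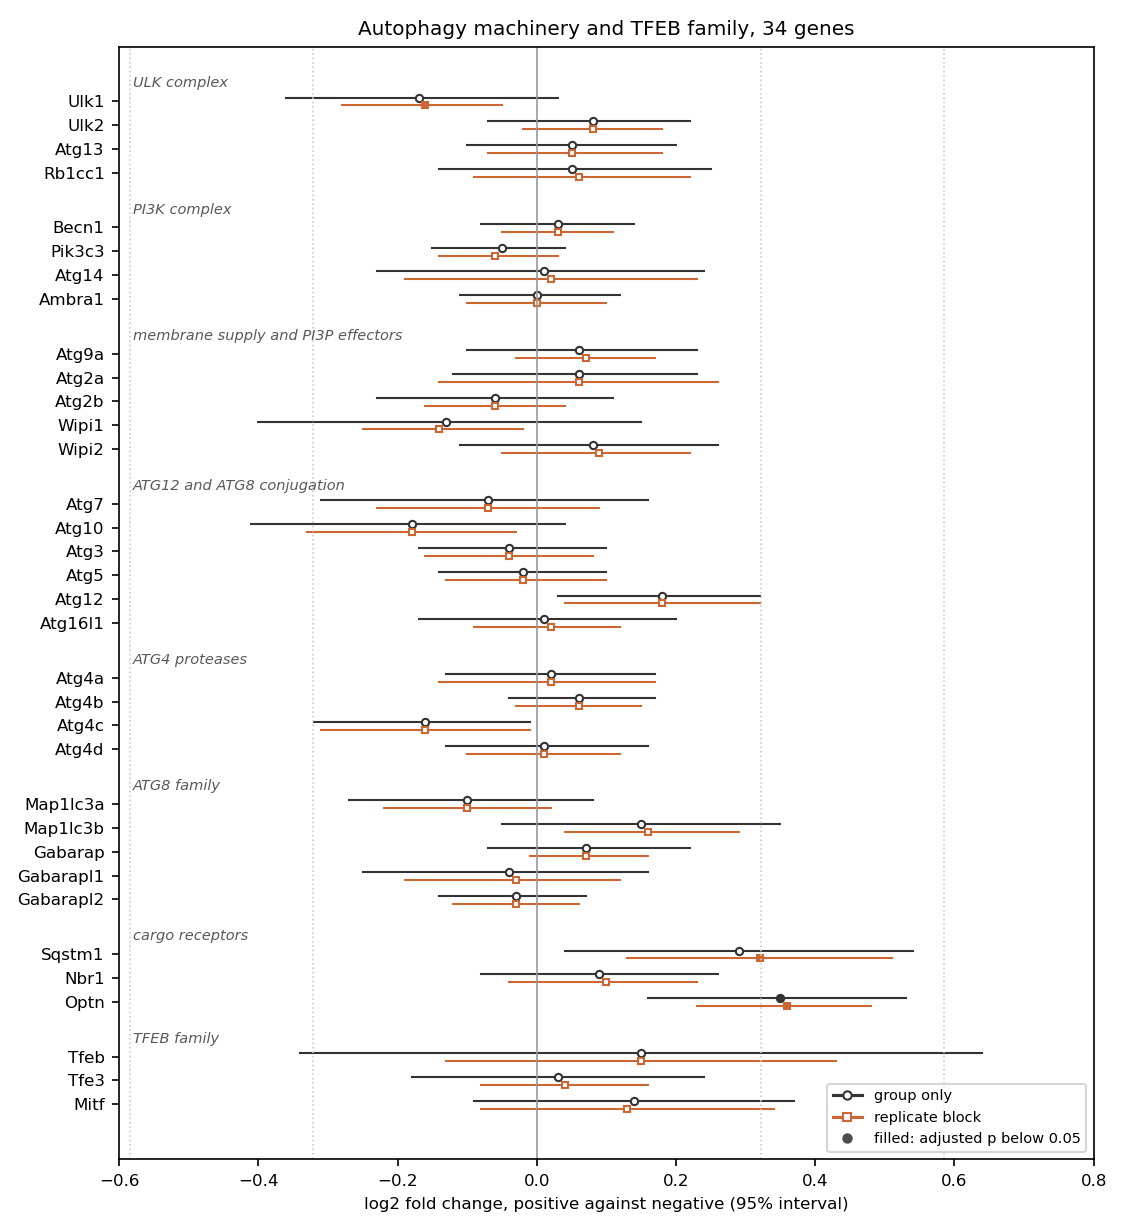
Log2 fold changes (positive minus negative) of the 34 genes with 95% confidence intervals, by role. Circles show the fit with group alone and squares the fit with the block, filled where the adjusted p was below 0.05. With group alone most intervals include 0, Optn lies at 0.35, and Tfeb has the widest interval, -0.34 to 0.64.

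The 3 cargo receptors among the 34 genes had a median log2 fold change of 0.29, and Optn and Sqstm1 had the highest values of the 34. Optn encodes optineurin, which links ubiquitinated mitochondria and bacteria to ATG8 proteins, and it lies at chr2:5020642-5064051 on the minus strand of GRCm38. Its level was 23.1 to 36.6 CPM in negative libraries, with a median of 33.8, and 36.7 to 43.9 CPM in positive libraries, with a median of 42.1. The 2 groups did not overlap, but only narrowly, with 36.6 CPM in negative 3 against 36.7 CPM in positive 1. Its mean (± SD, 7 libraries a group) rose from 32.2 ± 4.57 to 41.0 ± 2.88 CPM. This was a log2 fold change of 0.35 ± 0.09 (SE), or 1.27-fold, with an edgeR adjusted p of 0.021. All 7 same-number pairs were higher in positive cells, and with the block the adjusted p was 0.0017. The call was lost without negative library 2 (adjusted p = 0.0564), without positive library 6 (adjusted p = 0.0604), and without the 4 libraries numbered 6 and 7, where the log2 fold change was 0.38 (adjusted p = 0.128). With the block and without those 4 libraries the adjusted p was 0.00695.

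Sqstm1 encodes p62, a receptor that carries ubiquitinated proteins into autophagosomes and is itself degraded there; it lies at chr11:50199366-50210827 on the minus strand. Its level was 1608, 1867, 3024, 2541, 2681, 2364 and 2572 CPM in negative libraries 1 to 7, and 2723, 2650, 3081, 2813, 2836, 3119 and 3177 CPM in positive libraries 1 to 7. The 2 lowest values were negative libraries 1 and 2, and the groups overlapped. The means were 2380 ± 488 and 2914 ± 209 CPM, and the log2 fold change of 0.29 ± 0.12 had an edgeR adjusted p of 0.16. In the fit with the block Sqstm1 rose by 0.32 ± 0.09, with an adjusted p of 0.0257 and 7 of 7 pairs higher. That call was lost without number 2 (adjusted p = 0.0725), 6 (adjusted p = 0.0702) or 7 (adjusted p = 0.057), and without both 6 and 7 (adjusted p = 0.13). Sqstm1 shares 17.3% of its exon bases with Mrnip on the opposite strand, and the strand setting of the counting is not given in the sources used here.

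Nbr1, a receptor that works beside p62 on ubiquitinated cargo, was at 325 to 472 CPM in negative and 397 to 477 CPM in positive libraries. The groups overlapped, and its log2 fold change of 0.09 ± 0.08 had an adjusted p of 0.586. The promoters of Optn and Sqstm1 are printed because these are the receptors called in either fit. They come from RefSeq (GRCm38.p6), with the 250 bases before the RefSeq start in lower case and the 30 bases from that start in capitals. For Optn the whole stretch, from 5064088 on, lies outside the gene span given above. That span comes from GENCODE M21 and ends at 5064051, so the 2 annotations place the start differently. Neither promoter holds the E-box CACGTG.
Optn (chr2:5064088-5064367, minus strand): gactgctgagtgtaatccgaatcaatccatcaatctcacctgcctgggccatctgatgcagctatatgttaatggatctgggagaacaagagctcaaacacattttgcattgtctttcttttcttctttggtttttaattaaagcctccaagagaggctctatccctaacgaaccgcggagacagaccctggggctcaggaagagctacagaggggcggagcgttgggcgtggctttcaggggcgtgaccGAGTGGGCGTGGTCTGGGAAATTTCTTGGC
Sqstm1 (chr11:50210791-50211070, minus strand): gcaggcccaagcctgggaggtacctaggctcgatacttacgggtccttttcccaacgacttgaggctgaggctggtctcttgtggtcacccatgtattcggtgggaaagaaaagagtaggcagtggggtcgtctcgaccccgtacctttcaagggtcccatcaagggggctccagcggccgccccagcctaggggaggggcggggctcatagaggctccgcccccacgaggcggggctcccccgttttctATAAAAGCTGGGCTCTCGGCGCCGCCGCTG

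**Figure D2:**
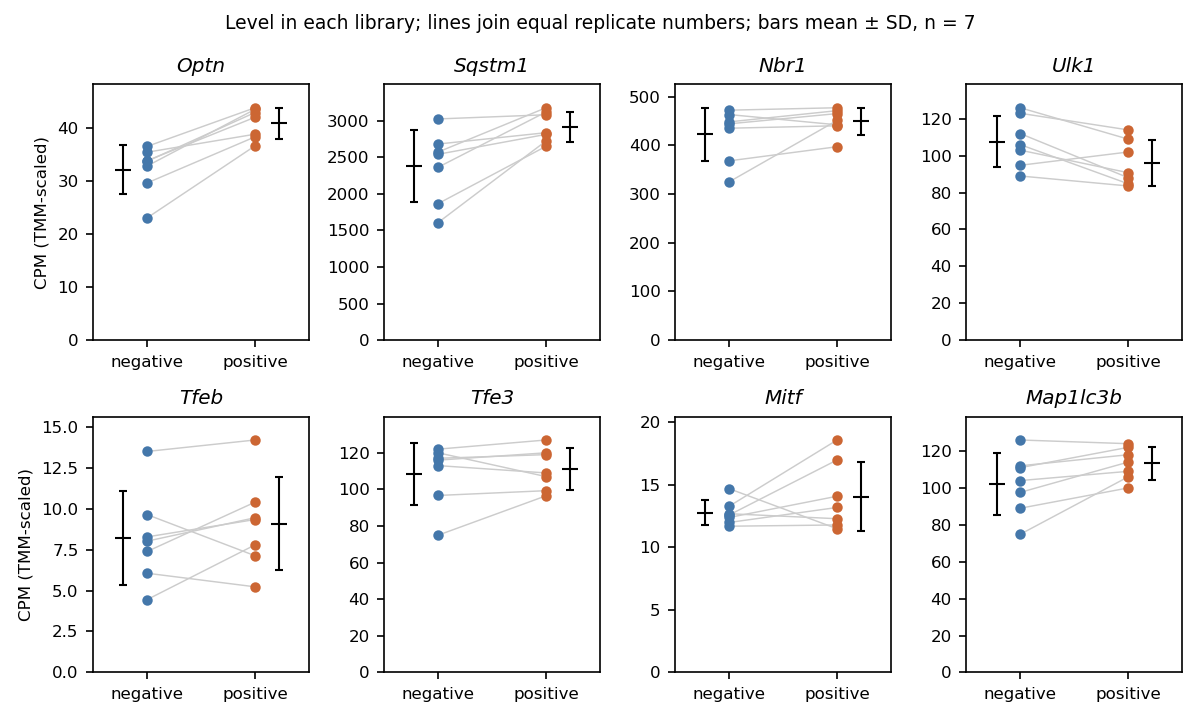
CPM of 8 genes in each library, with lines joining the negative and positive library of the same number. In all 7 pairs Optn and Sqstm1 were higher on the positive side, Ulk1 was lower in 6 of 7, and number 3 had the highest Tfeb level in both groups.

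The ULK complex had a median log2 fold change of 0.05, and 0 of its 4 genes were called by edgeR with group alone, with 0 at an unadjusted p below 0.05. Ulk1, the kinase that mTORC1 and AMPK control (chr5:110784488-110810097, minus strand), was at 94.8, 103, 89.0, 123, 126, 112 and 106 CPM in negative libraries 1 to 7. In positive libraries 1 to 7 it was at 102, 90.8, 83.6, 114, 109, 88.1 and 84.8 CPM. The groups overlapped, and 6 of 7 pairs were lower in positive cells. The log2 fold change was -0.17 ± 0.09 with an adjusted p of 0.325, and with the block Ulk1 was called lower at -0.16 ± 0.05 and an adjusted p of 0.0494. The blocked call was lost when number 2 (adjusted p = 0.0817), 4 (adjusted p = 0.0608), 5 (adjusted p = 0.112), 6 (adjusted p = 0.136) or 7 (adjusted p = 0.127) was left out. Without both 6 and 7 the blocked value was -0.10 (adjusted p = 0.298). The related kinase gene Ulk2 was at 57.4 ± 5.57 and 60.6 ± 4.17 CPM, with a log2 fold change of 0.08. Atg13, the regulatory subunit, and Rb1cc1, which encodes the scaffold FIP200, both had a log2 fold change of 0.05. Whether Ulk1 and Ulk2 differed from each other in their change was not tested.

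Genes of the PI3K complex had the narrowest spread of the 8 roles, from -0.05 to 0.03, and 0 of 4 were called by edgeR in either fit, with 0 at an unadjusted p below 0.05. Pik3c3, the lipid kinase VPS34, was at 35.2 ± 1.47 CPM in the negative gate and 33.9 ± 1.24 CPM in the positive gate, a log2 fold change of -0.05. Becn1, the beclin scaffold, was at 157 ± 8.57 and 160 ± 9.31 CPM. In the annotation 43.9% of the Becn1 exon bases overlap Cntd1 on the opposite strand. Ambra1, a regulator of the complex, was at 76.3 CPM in both groups, with SDs of 3.78 and 5.41, and its 95% interval was -0.11 to 0.12. Atg14, which directs the kinase to the forming autophagosome, was at 34.3 ± 6.39 and 34.4 ± 3.35 CPM, with an interval of -0.23 to 0.24.

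Among the genes of membrane supply and PI3P binding, 0 of 5 were called by edgeR in either fit, with 0 at an unadjusted p below 0.05 with group alone and 1 with the block. Atg9a, the membrane-spanning lipid scramblase, was at 30.1 ± 3.47 and 31.5 ± 2.44 CPM. A predicted gene on the same strand, Gm29253, shares 31.8% of its exon bases. The lipid transfer genes Atg2a and Atg2b had log2 fold changes of 0.06 and -0.06. Wipi1 and Wipi2 encode proteins that bind PI3P. Wipi1 was at 62.4 to 92.9 CPM in negative and 49.7 to 95.1 CPM in positive libraries, and number 1 was the highest of both groups. Its log2 fold change was -0.13 ± 0.13 (adjusted p = 0.631, and 0.0887 with the block). Wipi2 was at 149 ± 22.2 and 157 ± 7.5 CPM, a log2 fold change of 0.08.

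The 6 conjugation genes had log2 fold changes from -0.18 to 0.18, and these extremes belonged to Atg10 and Atg12. None was called by edgeR in either fit, and 1 of 6 had an unadjusted p below 0.05 with group alone and 2 with the block. Atg12, the ubiquitin-like protein joined to ATG5, was at 27.8 to 35.2 CPM in negative and 32.2 to 38.0 CPM in positive libraries. The groups overlapped, and its log2 fold change of 0.18 ± 0.07 had an adjusted p of 0.135, or 0.0648 with the block. Atg10, the enzyme that passes ATG12 to ATG5, was at 8.90 to 14 and 8.03 to 11.1 CPM. It was lower in all 7 pairs, with a log2 fold change of -0.18 ± 0.11 and an adjusted p of 0.352, or 0.0851 with the block. Atg7, which activates both ubiquitin-like proteins, was at 14.1 ± 2.22 and 13.4 ± 1.86 CPM, and Atg3, which passes ATG8 to its lipid, was at 49.5 ± 4.18 and 48.2 ± 3.18 CPM. Atg5 and Atg16l1, whose products join ATG12 in the complex that directs lipidation, had log2 fold changes of -0.02 and 0.01.

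The ATG4 proteases trim ATG8 proteins before conjugation and release them afterwards. edgeR called 0 of the 4 genes in either fit, with 1 at an unadjusted p below 0.05. Atg4b, which acts on most ATG8 proteins, was at 51.0 ± 2.39 and 53.3 ± 2.56 CPM. Atg4c was at 14.1 to 18.6 CPM in negative and 12.9 to 15.6 CPM in positive libraries, with a log2 fold change of -0.16 ± 0.07 (adjusted p = 0.209, and 0.137 with the block). Its groups overlapped, and 1 of 7 pairs was higher in positive cells. Atg4a and Atg4d had log2 fold changes of 0.02 and 0.01, and 19.3% of the Atg4d exon bases overlap Kri1 on the opposite strand.

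The ATG8 family, the proteins that coat the autophagosome membrane and bind cargo receptors, had log2 fold changes from -0.10 to 0.15. edgeR called 0 of 5 in either fit, with 0 at an unadjusted p below 0.05 with group alone and 1 with the block. Map1lc3b, which encodes the LC3 protein most often used to count autophagosomes, was at 74.9 to 126 CPM in negative libraries (median 104) and 100 to 124 CPM in positive libraries (median 114). The range of the positive libraries lay inside that of the negative libraries, 6 of 7 pairs were higher, and the log2 fold change of 0.15 ± 0.09 had an adjusted p of 0.388 (0.0646 with the block). Map1lc3a, a close relative, was at 30.7 to 40.5 CPM (median 37.2) and 27 to 37.1 CPM (median 33.5), a log2 fold change of -0.10. Gabarap was at 268 to 320 CPM (median 286) and 273 to 339 CPM (median 313). It was higher in 7 of 7 pairs by small amounts, and its log2 fold change of 0.07 ± 0.07 had an adjusted p of 0.584. Gabarapl1 was at 306 to 507 CPM (median 423) and 363 to 443 CPM (median 432), and 28.3% of its exon bases overlap 1700101I11Rik on the opposite strand. Gabarapl2 had the most even levels of the family, 40.2 to 48.7 CPM (median 44.5) and 41.8 to 44.2 CPM (median 43.3), with an interval of -0.14 to 0.07. Its positive libraries all lay within the range of the negative ones.

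The 3 TFEB family genes had log2 fold changes from 0.03 to 0.15, and edgeR called 0 of them in either fit, with 0 at an unadjusted p below 0.05. Tfeb was the least abundant, at 6.06, 4.45, 13.5, 8.28, 9.64, 7.39 and 8.02 CPM in negative libraries 1 to 7. In positive libraries 1 to 7 it was at 5.23, 7.79, 14.2, 9.34, 7.13, 10.4 and 9.45 CPM. The libraries numbered 3 were the highest in both groups, and the spread within a group (coefficient of variation 35.0% and 31.3%) exceeded the difference between the means. The log2 fold change was 0.15 ± 0.23 (adjusted p = 0.767), and its interval included a change of 1.5-fold upwards. Tfe3 was at 75.0 to 122 CPM (median 116) and 96.5 to 127 CPM (median 109). Negative library 1 was the lowest, and the log2 fold change of 0.03 ± 0.10 (adjusted p = 0.897) was -0.05 without it.

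Mitf, known as the regulator of pigment cells and also active in macrophages, was at 12, 11.7, 12.7, 12.4, 14.7, 12.6 and 13.3 CPM in negative libraries 1 to 7. In positive libraries 1 to 7 it was at 13.2, 11.8, 12.3, 14.1, 11.5, 17 and 18.6 CPM. The 2 highest values were positive libraries 6 and 7, which had the highest macrophage marker sums (824 and 578 CPM). The log2 fold change was 0.14 ± 0.11 (adjusted p = 0.514), and -0.01 without the 4 libraries numbered 6 and 7 (adjusted p = 0.974). Tfec, the remaining gene of this family and mainly a macrophage gene, did not pass the filter. It had 0 counts in each of the 7 negative libraries, which allows up to 3 counts per library, and 4, 4, 6, 1, 3, 11 and 7 counts in positive libraries 1 to 7. Its highest counts were in positive libraries 6 and 7.

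The E-box CACGTG, and the longer form TCACGTGA that TFEB is known to prefer, were searched in RefSeq promoters (GRCm38.p6, 250 bases before to 50 after the start). Both motifs read the same on either strand, and each TCACGTGA contains a CACGTG. Of the 34 genes, 28 had a promoter in the table, and 4 of the 28 (14.3%) held an E-box, against 8.09% of 27025 genes. These were Atg3, Atg5, Atg7 and Atg14. For Atg7 and Atg14 the window with the E-box lies inside the annotated span of the gene. Promoters of the 34 genes had a median GC content of 59.3%, against 52.7% over all promoters, and its part in these shares was not tested. The longer form was found in 1 of 28 (3.57%), Atg3, against 1.12% of all genes. In a list of 32 known TFEB target genes, most of them lysosomal, 15 of the 25 with a promoter (60.0%) held an E-box and 8 (32.0%) the longer form. Such motifs helped define those targets in the first place. The promoters of Tfeb, Tfe3 and Mitf, like those of Optn and Sqstm1, held neither motif in this window. Each window below carries 1 motif in capitals, beside those of the TFEB targets Clcn7 and Ctsd for comparison. The Atg3, Clcn7 and Ctsd windows carry the longer form, and the Atg3 and Clcn7 windows each hold a second CACGTG in lower case.
Atg3 (chr16:45158731-45158790, plus strand): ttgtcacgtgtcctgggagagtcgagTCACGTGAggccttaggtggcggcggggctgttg
Atg5 (chr10:44268298-44268357, plus strand): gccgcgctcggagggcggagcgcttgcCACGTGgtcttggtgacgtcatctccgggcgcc
Atg7 (chr6:114670937-114670996, plus strand): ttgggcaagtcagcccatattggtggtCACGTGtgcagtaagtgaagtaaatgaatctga
Atg14 (chr14:47568405-47568462, minus strand): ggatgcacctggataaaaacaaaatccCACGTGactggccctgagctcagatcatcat
Clcn7 (chr17:25133371-25133420, plus strand): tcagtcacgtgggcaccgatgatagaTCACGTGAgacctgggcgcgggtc
Ctsd (chr7:142387893-142387952, minus strand): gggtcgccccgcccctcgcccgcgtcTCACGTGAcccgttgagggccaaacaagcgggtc

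Of the 4 genes with an E-box, none was called in either fit. The log2 fold changes were -0.04 for Atg3, -0.02 for Atg5, -0.07 for Atg7 and 0.01 for Atg14, with edgeR adjusted p-values of 0.792, 0.888, 0.756 and 0.983. The comparison genes Clcn7 and Ctsd were called higher in positive cells, with values given with their list. They do not stand for all 15 targets with an E-box. With group alone Hif1a was also called higher and Ctsf lower, and others, such as Lamp1 and Mcoln1, were not called. A motif match in a promoter is a description and not a measured binding site.

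Levels were compared between genes only per length, as CPM per kilobase of exon over all 14 libraries. Sqstm1 was the most abundant of the 34, at 789 ± 136 CPM per kilobase (SD, n = 14), above every other gene in every library. Gabarapl1 followed at 209 ± 25.2, Gabarap at 161 ± 13.4 and Nbr1 at 63.4 ± 6.35 CPM per kilobase. Cargo receptors and ATG8 genes thus held the first 4 places, and Optn was 19th at 9.75 ± 1.55. Map1lc3a, at 29.1 ± 3.17, was above Map1lc3b, at 14.3 ± 1.88. That order rests on exon lengths of 1.18 and 7.52 kilobases in the annotation, since in CPM, not per length, Map1lc3b had the higher values. At the low end were Mitf at 2.16 ± 0.336, Atg7 at 1.97 ± 0.287 and Tfeb at 1.52 ± 0.490, while Tfe3 was at 11.8 ± 1.49. Tfe3 was thus the most abundant TFEB family transcript per length. The ranges of neighbours in the order overlapped, with 4 exceptions: Sqstm1 above Gabarapl1, Gabarap above Nbr1, Nbr1 above Atg13, and Atg12 above Atg4a.

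**Figure D3:**
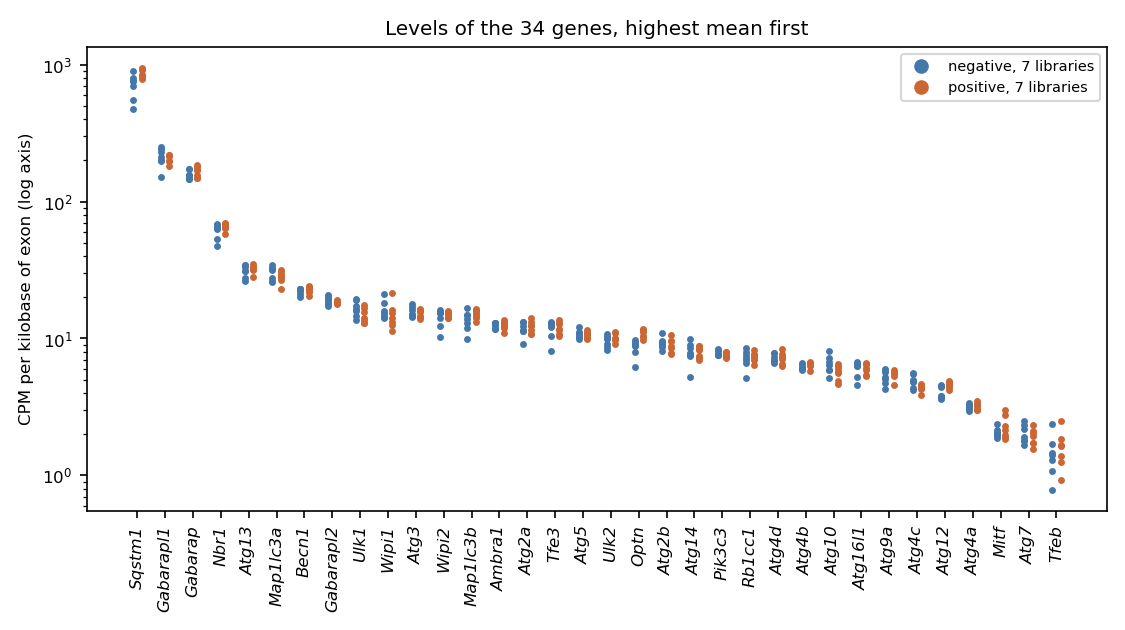
Levels of the 34 genes per kilobase of exon in the 14 libraries (log axis), in order of their mean. Sqstm1 leads at a mean of 789 CPM per kilobase and Tfeb closes the order at 1.52.

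Library negative 1 was often the lowest for these genes. It was the lowest of the 7 negative libraries for 17 of the 34, and the lowest of all 14 libraries for 14, among them Optn, Sqstm1, Nbr1, Map1lc3b, Gabarapl1 and Tfe3. It was also the deepest negative library, with 23045934 counts. Genes outside the 34 were also lowest of all 14 libraries there, such as Tollip (164 CPM) and Rheb (143 CPM), while Fundc1 (38.2 CPM) was highest. The share over all genes is not given here. Without negative 1 the log2 fold change of Optn was 0.27 (edgeR adjusted p = 0.0179), and that of Sqstm1 was 0.20 (adjusted p = 0.248).

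Genes around the machinery were read from 3 lists. Of 37 other autophagy genes 35 were tested, and edgeR with group alone called 0 of them, while DESeq2 called 2 higher. In the edgeR fit 6 of the 35 had an unadjusted p below 0.05, against 3457 of all 16350 genes. The list's median log2 fold change was 0.01, so this list, too, was centred near 0. Calcoco2, another cargo receptor gene and 1 of those not tested, had 12 counts in negative 1, 3 in positive 1 and 0 in the other libraries. The further receptor genes Tax1bp1, Calcoco1 and Bnip3l had log2 fold changes of 0.01, 0.06 and 0.01, and none was called in either fit. With the block 6 genes of this list were called higher (17.1%, against 11.8% of all genes) and 2 lower (5.71%, against 7.77%). Bnip3, a mitophagy receptor, rose by 0.28 ± 0.07 in that fit (adjusted p = 0.012). Atg16l2, a relative of Atg16l1, fell by 0.29 on the log2 scale (adjusted p = 0.0102), and Fundc1, a mitochondrial receptor, fell by 0.19 (adjusted p = 0.0241). Tollip, an adaptor for ubiquitinated cargo, rose by 0.22 (adjusted p = 0.0444), Epg5, which tethers autophagosomes to lysosomes, by 0.21 (adjusted p = 0.0127), and Wdfy3, a scaffold of aggregate clearance, by 0.19 (adjusted p = 0.0159).

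Of 35 genes of mTORC1 and AMPK signalling, which act upstream of ULK1 and TFEB, edgeR called 2 higher (5.71%, against 6.40% of all genes) and 0 lower (against 1.63%), with 5 at an unadjusted p below 0.05, so the list's share was not above that of all genes. Fnip2, a folliculin partner, rose from 157 ± 29.3 to 215 ± 34 CPM, or by 0.45 ± 0.13 on the log2 scale (adjusted p = 0.0346). Rragc, a Rag GTPase that places mTORC1 on the lysosome, rose from 119 ± 7.36 to 134 ± 4.91 CPM, a log2 fold change of 0.17 ± 0.05 (adjusted p = 0.0474). The Fnip2 call was lost when any of 9 of the 14 libraries was left out (adjusted p 0.0579 to 0.0878) and the Rragc call for 13 of 14 (adjusted p 0.0658 to 0.147), all but negative 3. With the block 5 were called higher (14.3%, against 11.8% of all genes) and 3 lower (8.57%, against 7.77%), shares again near those of all genes. Fnip2 was called in that fit at 0.46 ± 0.06 (adjusted p = 0.000289) and Rragc at 0.17 ± 0.04 (adjusted p = 0.0116). Rragd, another Rag GTPase, rose by 0.19 ± 0.04 (adjusted p = 0.00467), Rheb, the GTPase that activates mTORC1, by 0.18 ± 0.05 (adjusted p = 0.0377), and Sesn2, a leucine sensor, by 0.18 ± 0.05 (adjusted p = 0.0412). Its relatives Sesn1 and Sesn3 fell by 0.21 (adjusted p = 0.00758) and 0.16 (adjusted p = 0.0369) on the log2 scale, and Depdc5, a brake on mTORC1, fell by 0.18 (adjusted p = 0.0396).

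Of the 32 known TFEB targets 31 were tested. edgeR called 6 higher (19.4%, against 6.40% of all genes) and 1 lower (3.23%, against 1.63%). Their median log2 fold change was 0.11, and 28 of 31 were above 0, against 8186 of all 16350 genes. Clcn7, a lysosomal chloride transporter, rose from 47.7 ± 3.77 to 59.7 ± 5.86 CPM, a log2 fold change of 0.32 ± 0.07 (adjusted p = 0.00728), and the value was 0.31 (adjusted p = 0.0481) without the 4 libraries numbered 6 and 7. Ctsb, the protease cathepsin B, rose from 559 ± 57.0 to 831 ± 216 CPM, a log2 fold change of 0.57 ± 0.13 (adjusted p = 0.0123). Its highest values, 1198 and 1081 CPM, were in positive libraries 6 and 7, and without the 4 libraries of those numbers it was 0.40 (adjusted p = 0.0116). Ctsd, cathepsin D, rose by 0.34 ± 0.09 (adjusted p = 0.0351), and without those 4 libraries its value was 0.15 (adjusted p = 0.45). The Ctsd call was also lost when any of 9 single libraries was left out (adjusted p 0.0525 to 0.0978), and with the block (adjusted p = 0.0561).

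Gpnmb, a glycoprotein abundant in macrophages, had 17 counts over the 7 negative libraries and was at 5.75 to 43.5 CPM in positive libraries, a log2 fold change of 6.64 ± 0.70 (adjusted p = 6.7e-05). Hif1a, a hypoxia-responsive transcription factor, rose by 0.25 on the log2 scale (adjusted p = 0.0419). Leaving out single libraries ended the Hif1a call for 10 of 14 (adjusted p 0.0602 to 0.12). Without the 4 libraries numbered 6 and 7 the Hif1a value was 0.16 (adjusted p = 0.415). Ctsf, cathepsin F, fell from 84.6 ± 7.57 to 68.7 ± 6.82 CPM, a log2 fold change of -0.30 ± 0.07 (adjusted p = 0.0168), and its adjusted p was 0.0602 without the libraries numbered 6 and 7. With the block 9 targets were called higher (29.0%, against 11.8% of all genes) and 1 lower (3.23%, against 7.77%). Gla, the lysosomal alpha-galactosidase, was among the former at 0.25 ± 0.06 (adjusted p = 0.0214). Its highest values, 81.3 and 83.8 CPM, were in positive libraries 6 and 7. The other positive libraries were at 54.7 to 65.1 CPM, and the negative libraries at 48.8 to 60.7 CPM. The difference between the targets and the TFEB family transcripts themselves was not tested.

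**Figure D4:**
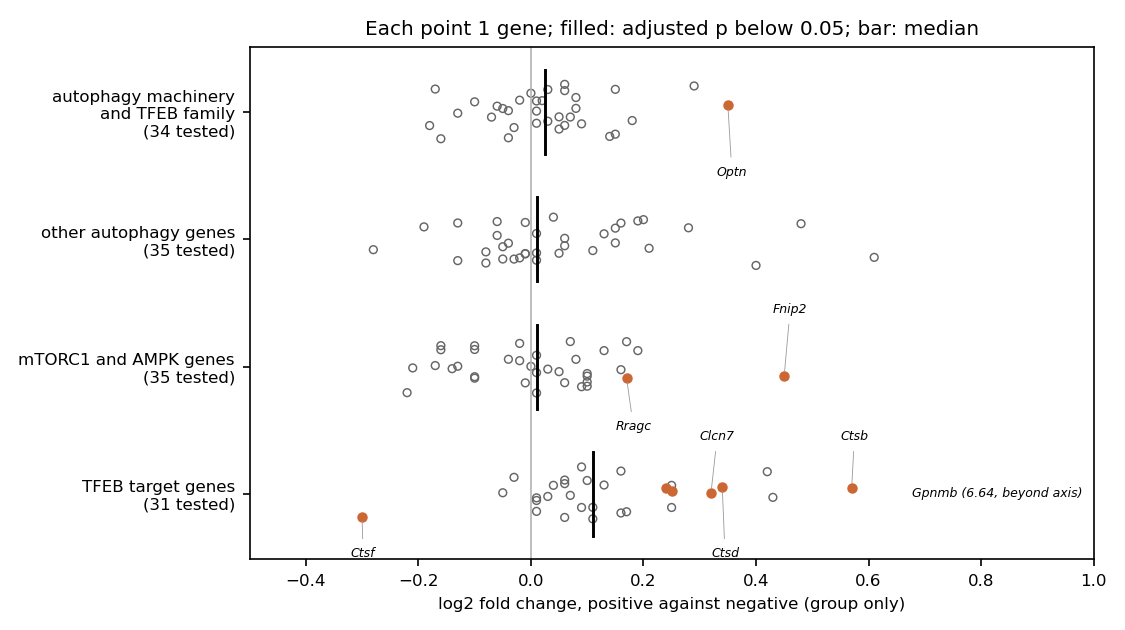
Log2 fold changes (positive minus negative) of the 34 genes and of the 3 further lists, 1 point per gene, with calls of the fit with group alone filled, most of them labelled, and Gpnmb, at 6.64, shown at the edge of the axis. The 34 genes lie between -0.18 and 0.35.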

How the data were processed

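The 14 deposited columns hold raw read counts per gene, which the authors made with Subread and featureCounts on GRCm38, per the submitters' processing notes. Their versions, the annotation and the strand setting are not given in the sources used here, although the labels' protocols name a directional kit. The counts were analysed as deposited, and every sample column was matched to a sample by its name. The 34 genes and the further lists were chosen with earlier results of these data known.

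Groups were compared in R 4.3.3 with edgeR 4.0.16 (filterByExpr, which left 16350 genes, TMM scaling, robust quasi-likelihood F-test, group as the only term). Benjamini-Hochberg adjusted p-values below 0.05 over all genes tested were called. CPM used TMM-scaled library sizes, and standard errors came from the F statistic. Coordinates and exon lengths came from GENCODE M21. The fits were run on simulated data that held no effect of replicate number, so the pairing in the block was not tested there.

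Same-numbered libraries deviated together from their group means (r 0.20 to 0.54, different numbers median -0.13), which is the source of the pairing, since the labels give the numbers without saying what they share. No replicate pair agreed within sampling noise (lowest chi-square per degree of freedom 5.36). Alternatives were the block, DESeq2 1.42.0, its size factors (RLE), no filter, each library left out, and the 4 libraries numbered 6 and 7 left out. Every one of the 34 genes is accounted for. Per-library values or ranges are given for called genes, the ATG8 and TFEB families and some uncalled genes. From each further list at most 4 called genes per direction with the largest change and an average of at least 1 log2 CPM are named, plus Tfec. Hif1a, Calcoco2, Tax1bp1, Calcoco1, Bnip3l and the E-box comparison were added after their values were seen. Values of 1 further called gene are not reported here.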

Additional observations from a re-analysis of the deposited data

Results flagged for a closer look

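Atg9a had 26.3 CPM in positive library 2, below the other 6 positive libraries at 30.8 to 33.6 CPM, a gap large enough for Dixon's test at 95%. Gpnmb had 43.5 CPM in positive library 6, above the other positive libraries at 5.75 to 20.9 CPM, by the same test. Among the 108 groups of libraries checked, 2 such values were found, where chance gives about 1 in 20 groups, or 5.4. Tfec, which the filter on low counts removed, had 36 counts over the 7 positive libraries and 0 over the 7 negative ones.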

How the results depend on the processing

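Replicate number was also used as a block, although the labels do not say what the numbers share. With it the calls over all genes went from 1047 to 1930 higher and from 266 to 1270 lower. Among the 34 genes they went from 1 to 2 higher and 0 to 1 lower. For other autophagy genes they went from 0 to 6 higher and 0 to 2 lower. For mTORC1 and AMPK they went from 2 to 5 higher and 0 to 3 lower, and for TFEB targets from 6 to 9 higher. Without the 4 libraries numbered 6 and 7 the counts were 536 higher and 45 lower over all genes, 0 higher among the 34, 0 higher for mTORC1 and AMPK, and 3 higher and 0 lower for TFEB targets; fewer libraries entered that fit. DESeq2 called 1597 higher and 467 lower over all genes and 2 other autophagy genes higher. DESeq2's size factors left 1 mTORC1 and AMPK gene higher, and no filter left 0 of these and 1 other autophagy gene higher.

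Leaving out 1 library at a time gave 825 to 1267 higher and 140 to 616 lower over all genes, 0 to 1 higher among the 34 (0 without negative 2 or positive 6) and 0 lower, 0 to 1 higher and 0 to 1 lower among other autophagy genes, 0 to 2 higher and 0 to 1 lower for mTORC1 and AMPK, and 3 to 5 higher and 1 lower for TFEB targets. With the block and without numbers 6 and 7 there were 1040 higher and 514 lower over all genes, 1 higher and 0 lower among the 34, 3 higher and 1 lower among other autophagy genes, 3 higher and 1 lower for mTORC1 and AMPK, and 4 higher for TFEB targets. With the block and 1 number left out, the ranges were 1411 to 2116 and 752 to 1733 over all genes, 1 to 4 and 0 to 2 among the 34, 2 to 7 and 1 to 3 for other autophagy genes, 3 to 5 and 1 to 6 for mTORC1 and AMPK, and 7 to 9 and 1 for TFEB targets. Over these settings 15 of the 34 genes changed sign, none of them called in any setting. The cause of these moves was not tested. Tfeb had 48 counts in its lowest library.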
